A study of Mus musculus with 36 samples.

Results

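The atrial chambers of the embryonic mouse heart were compared at embryonic days E16.5 and E13.5, with 3 arrays at each age. These 6 arrays were chosen by their titles from the 36 arrays of a series on heart development in C57BL/6 mice, in which no embryo carried a named allele or treatment. The series holds atria and ventricles at 5 ages from E12.5 to E18.5, and the heart-bearing part of younger embryos. The 3 arrays titled E16.5 carry day 15.5 in their description, and the title's day was used. Nothing in the labels tells if arrays of a group came from separate embryos, litters or pools, so p-values here measure the spread between samples, which may be technical. RNA came from whole chambers, so each value sums over muscle, lining, connective tissue, blood and whatever adjoining tissue was taken.

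Between these ages the atria have been divided from the ventricles and their muscle layer thickens. Their cardiac muscle cells keep dividing while they assemble contractile and mitochondrial machinery, and fibroblasts, vessels, nerves and resident immune cells settle in the wall. In the blood, primitive red cells of the yolk sac, which carry embryonic globins, give way to red cells of the fetal liver. Atrial muscle is known for secreting natriuretic peptides and for its own set of myosin light chains, and the sinus node, the pacemaker of the heart, lies at the venous pole of the right atrium.

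The atrial label was checked against markers. Nr2f1, an atrial identity factor, had intensities of 1651 to 2889 on the 6 arrays and 182 to 238 on the 6 ventricular arrays of the same ages, and Sln, an atrial inhibitor of the calcium pump, 4543 to 15577 against 11.1 to 567, so the chambers did not overlap. Myl7, the atrial light chain, was less far apart at 10778 to 16821 against 5227 to 9965, and Nppa, atrial natriuretic peptide, overlapped at 10815 to 17476 against 9874 to 12754. Some arrays stood apart from the others of their age. Across all tested probe sets, log2 values of E13.5 arrays correlated among themselves at 0.9614 to 0.9742, those of E16.5 arrays at 0.9585 to 0.969, and arrays of different ages at 0.9487 to 0.9737. The ranges thus overlapped. E13.5 array 2 was the closest of its age to the E16.5 arrays, and many of the genes below took a value on it between the other E13.5 arrays and the E16.5 arrays. The labels do not settle if the age in its title is right, nor that of E14.5 array 3, which resembled E13.5 arrays 1 and 3 more than the other E14.5 arrays, so ages were used as titled. E16.5 array 2 held the most signal of ventricular genes: Irx4, a transcription factor of ventricular muscle, had intensities of 18, 356 and 15 on the 3 E16.5 arrays and 26.3, 49.2 and 17.3 on the 3 E13.5 arrays. That array also had the highest summed intensity of the brown fat list, 12300, against 1121 to 2742 on the other 5 arrays. Sftpc, the surfactant protein of lung epithelium, had intensities of 124, 112 and 1745 at E13.5 and 215, 153 and 5694 at E16.5, so array 3 of each age held lung signal. Array medians lay between 159.2 and 194.2, and the trimmed mean of each of the 36 arrays lay between 498.6 and 499.2, so the arrays had been scaled to a common level before deposit. The arrays give no read depth, and their number limits the precision.

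**Figure D1:**
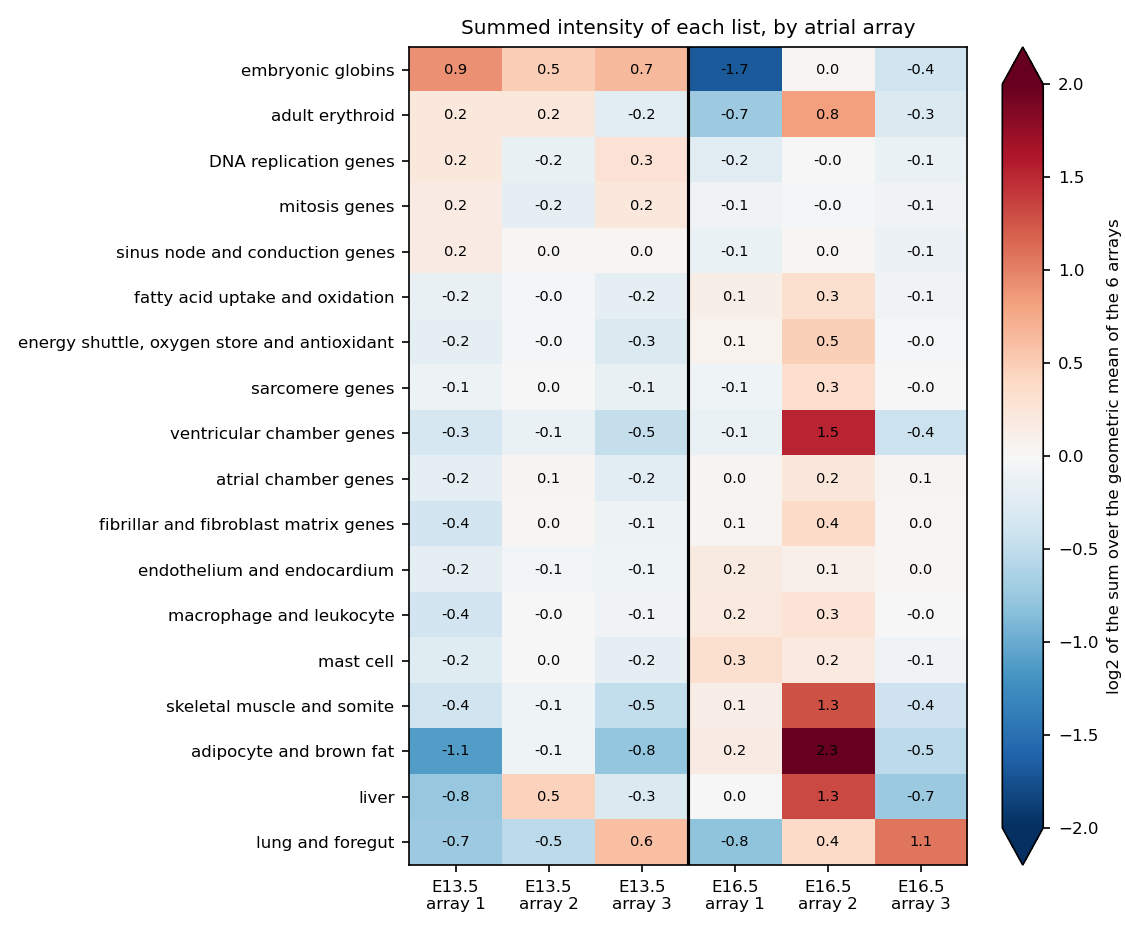
Summed intensity of 18 gene lists on each of the 6 atrial arrays, as log2 of the sum over the geometric mean of the 6 arrays (red higher, blue lower; colours end at 2 on either side). Embryonic globins were higher at E13.5 on all 3 arrays, and E16.5 array 2 was highest for the ventricular, skeletal muscle, brown fat and liver lists. Array 3 of each age was the highest of its age for lung genes.

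No probe set passed an adjusted p of 0.05 for E16.5 against E13.5 (limma, Benjamini-Hochberg adjustment): 0 of 27256 were called, which is 0% of those tested. At an unadjusted p below 0.05 there were 3215 probe sets, or 11.8%, of which 1517 were higher and 1698 lower at E16.5. The lowest adjusted p was 0.069, which 19 probe sets shared. By size, a difference of 2-fold or more was seen for 190 probe sets upward and 75 downward. Each gene is represented below by its brightest probe set. All 3 E16.5 arrays lay above all 3 E13.5 arrays for 979 of 12983 genes (7.54%), and below them for 898 (6.92%). These shares are the background for every count of genes whose arrays did not overlap. The median log2 difference over all genes was -0.02. None of the 863 measured genes in 48 fixed lists was called either.

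The absence of calls depended on single arrays. Without E13.5 array 2 there were 213 probe sets higher and 125 lower at E16.5, and without E16.5 array 3 there were 164 higher and 80 lower. When each array was weighted by its agreement with its group, 127 were higher and 46 lower. E16.5 array 2 received the lowest weight, 0.424, and E13.5 array 2 a weight of 0.541, while the other 4 arrays had weights between 0.825 and 1.47. In genes rather than probe sets, these 3 fits called 211 (1.63%), 158 (1.22%) and 118 (0.909%), and 64 genes (0.493%) were called in all 3 of them, 56 higher and 8 lower. The 64 are called the shared genes below, and their arrays did not overlap between the ages in 47 cases. These 3 fits are those with the most calls of all settings tried, and they reuse the same arrays. E13.5 array 2, the closest of its age to E16.5, was left out of the first and weighted down in the last. Leaving out E13.5 array 1 or E16.5 array 1 or 2 called 0. The label shared is thus a description and adds no independent support. Genes are named below from fixed lists or for the size or p of their difference, and apart from a fixed set of heart genes they were chosen after their values were seen. All differences are log2(intensity + 17) at E16.5 minus E13.5 with their standard error (SE) from the fit to all arrays.

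**Figure D2:**
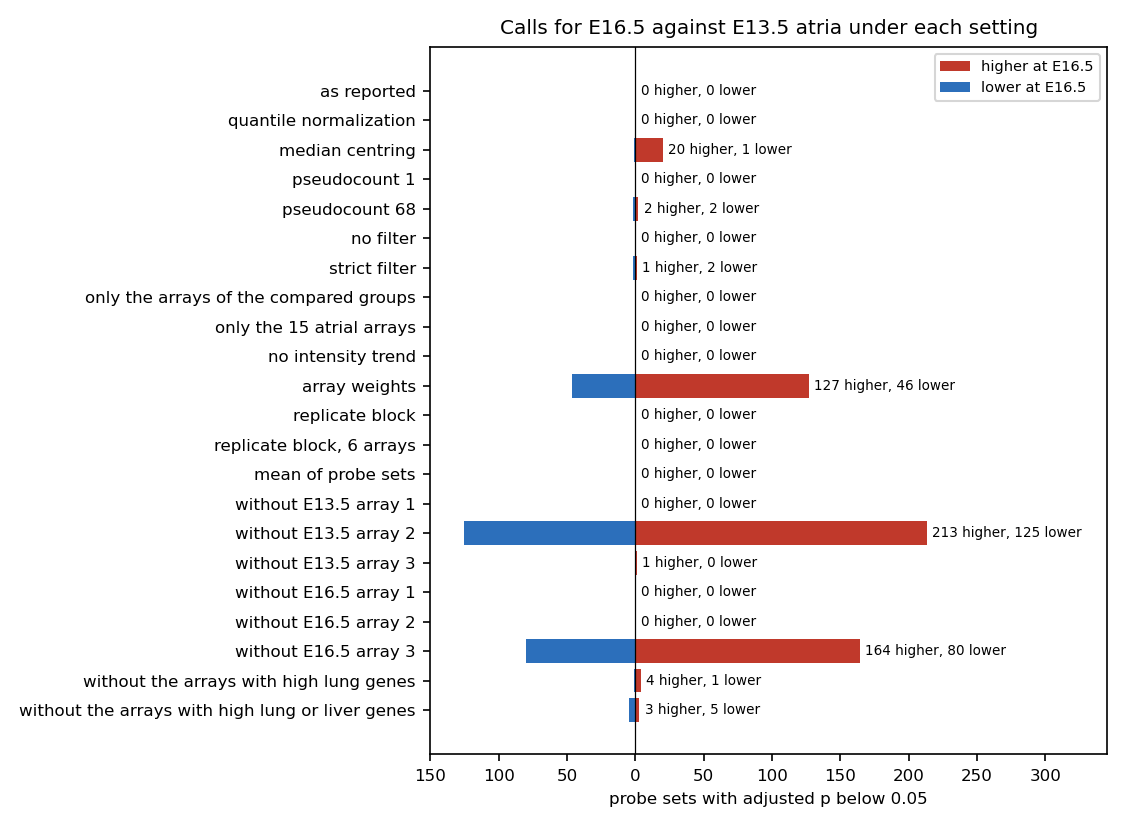
Number of probe sets with an adjusted p below 0.05 for E16.5 against E13.5 atria, higher (red, right) and lower (blue, left), in the reported fit and under each alternative setting. Calls went from 0 to 213 higher and 125 lower when E13.5 array 2 was left out, and to 164 higher and 80 lower without E16.5 array 3.

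**Figure D3:**
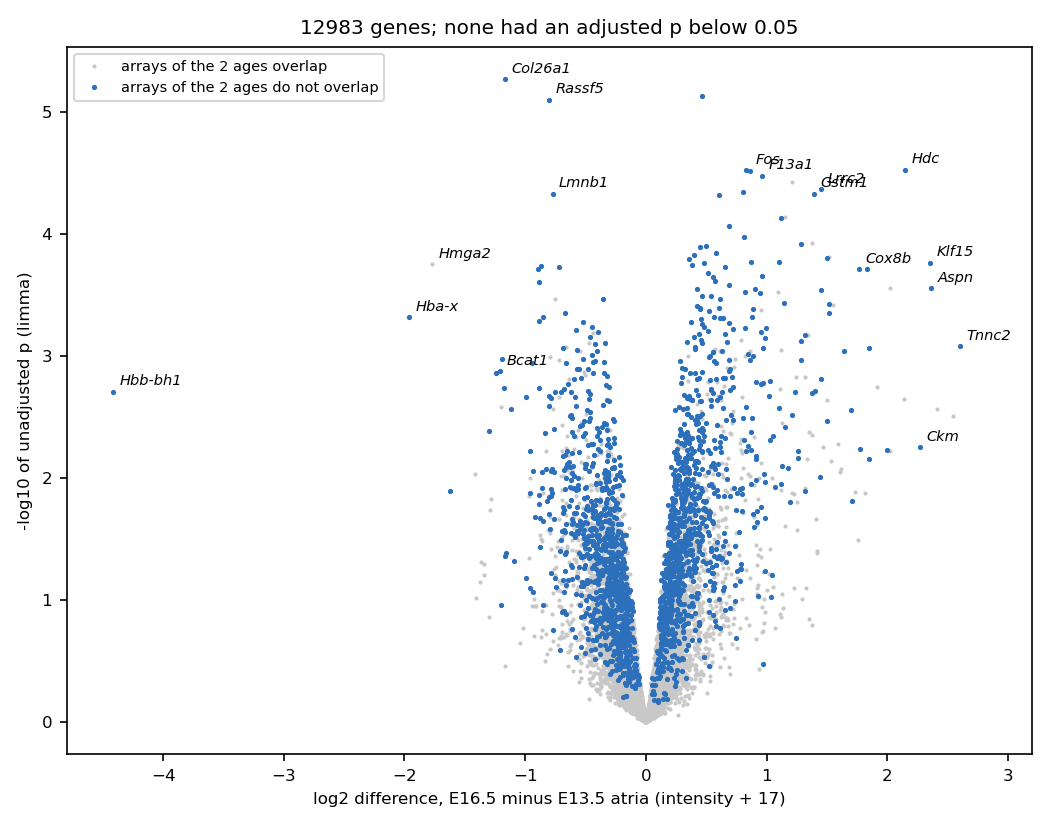
Log2 difference between E16.5 and E13.5 atria (horizontal) against -log10 of the unadjusted limma p (vertical) for 12983 genes, with genes whose 3 arrays of each age do not overlap in blue. Hbb-bh1, at -4.41, lies farthest to the lower side, Tnnc2, at 2.60, farthest to the higher side among the genes whose arrays did not overlap, and none had an adjusted p below 0.05.

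Embryonic globins, the haemoglobin chains of primitive red cells, were lower at E16.5. Their list of 3 measured genes had a median difference of -1.96, with 2 members lower on all 3 E16.5 arrays. The stretches just upstream of the RefSeq start sites of Hba-x and Hbb-y, the embryonic alpha-like and beta-like genes, are shown because both genes belong to this group and lie on different chromosomes. They run 5′ to 3′ on the gene's strand in build GRCm38.p6, Hba-x at chr11:32276460-32276599 (plus strand) and Hbb-y at chr7:103853208-103853347 (minus strand), and capitals mark matches to 3 motifs.
Hba-x: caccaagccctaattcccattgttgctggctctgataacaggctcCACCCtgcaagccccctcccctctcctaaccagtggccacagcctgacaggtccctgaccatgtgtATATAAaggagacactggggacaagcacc
Hbb-y: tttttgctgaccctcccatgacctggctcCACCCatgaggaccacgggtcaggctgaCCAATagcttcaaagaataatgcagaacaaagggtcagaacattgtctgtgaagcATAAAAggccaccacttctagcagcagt
The motifs were CACCC, the box bound by Klf1-type factors, CCAAT, and ATANAA, a form of the TATA box, each searched on both strands. Both stretches held a CACCC match and an ATANAA match, the latter at -29 to -24 in Hba-x and at -28 to -23 in Hbb-y relative to the start. A CCAAT match was found in the Hbb-y stretch alone, at -83 to -79. Over 32851 RefSeq promoters, stretches of the same length held CACCC in 35.6%, CCAAT in 23.4% and ATANAA in 19.9%. A match is only a run of these letters.

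Hba-x, which encodes the zeta chain, had intensities of 10742, 8785 and 11654 on the E13.5 arrays and 1221, 4347 and 3466 on the E16.5 arrays. All E16.5 arrays lay below all E13.5 arrays, array 1 the lowest, with a difference of -1.96 ± 0.50 SE, 3.89-fold lower, and an adjusted p of 0.12. With array weights it passed, at -2.13 and an adjusted p of 0.0398. Hbb-bh1, an embryonic beta-like chain, had intensities of 7820.4, 638 and 3191 at E13.5 and 210, 158 and 26 at E16.5. Again the ages did not overlap, but E13.5 array 2 was far below the other E13.5 arrays. The difference was -4.41 ± 1.30 SE with an adjusted p of 0.158, and -5.39 without E13.5 array 2. Hbb-y, the other embryonic beta-like chain, had intensities of 14286, 15125 and 12681 at E13.5 and 4019.9, 13536 and 9746 at E16.5, where array 2 overlapped the E13.5 range. Its difference was -0.79 ± 0.36 SE (adjusted p = 0.392), and -0.28 without E16.5 array 1. The Hbb-bh1 and Hbb-y probe sets used may bind near-identical globin transcripts, so these values are uncertain, although all 3 measured probe sets of each gene were lower at E16.5. In such bulk samples, fewer cells of a type and less RNA per cell cannot be told apart.

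Erythroid genes that are not restricted to embryonic red cells are given for comparison. Of 13 measured members of that list, 1 was higher and 2 were lower without overlap, and their median was -0.24. Their summed intensity was 26394, 26507 and 19447 at E13.5 and 13693, 40065 and 18620 at E16.5, so the ages overlapped and E16.5 array 2 was the highest of all. Alas2, the first enzyme of haem synthesis in red cells, had 8767, 9678 and 5711 at E13.5 and 4051, 14162 and 6317 at E16.5.

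Genes of mitochondrial energy supply mostly had small positive differences, in part with E16.5 array 2. Of 47 measured genes for oxidative phosphorylation or the TCA cycle, 43 had a positive difference and 13 (27.7%) lay above all E13.5 arrays without overlap, with none below. The median was 0.18, and none passed the adjusted test. The summed intensity was 334261, 342937 and 325492 at E13.5 and 339177, 440236 and 348859 at E16.5, so the ages overlapped and E16.5 array 2, the array with high ventricular, brown fat and liver genes, stood apart. Without that array 34 of 47 were positive and the median was 0.07. Most differences were small: Cs, citrate synthase, differed by 0.19, Idh3a by 0.23, Ogdh by 0.24 and Ndufs1, a core subunit of complex I, by 0.19. The largest was that of Cox8b, the muscle isoform of a cytochrome oxidase subunit, with intensities of 541, 1497 and 658 at E13.5 and 3300, 3263 and 2052 at E16.5. Every E16.5 array exceeded every E13.5 array, with E13.5 array 2 the highest of its age. The difference was 1.77 ± 0.42 SE, 3.4-fold, with an adjusted p of 0.0951, and Cox8b was one of the shared genes. Its widely expressed counterpart Cox8a differed by 0.15, and another muscle isoform, Cox6a2, by 0.32.

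In fatty acid uptake and oxidation 26 of 30 measured genes were positive and 8 (26.7%) were higher without overlap, with none lower and a median of 0.24. The summed intensity was 78817, 85850 and 76951 at E13.5 and 95269, 109971 and 84051 at E16.5, where array 3 lay below E13.5 array 2 and array 2, with its high brown fat genes, was the highest. Without E16.5 array 2, 22 of 30 were positive and the median was 0.17. Ppara, a nuclear receptor that drives fatty acid oxidation genes, had intensities of 122, 174 and 89 at E13.5 and 289, 271 and 272 at E16.5. Its difference of 1.06 ± 0.34 SE had an adjusted p of 0.211, and it was the largest of this list. Ppargc1a, a coactivator of mitochondrial genes, had 1225, 1622 and 1307 at E13.5 and 2249.7, 2106 and 1702 at E16.5, a difference of 0.54 ± 0.13 SE (adjusted p = 0.115), and was among the shared genes. Acaa2, the thiolase of the mitochondrial pathway, had 3282, 5208 and 3432 at E13.5 and 5963, 6486 and 5623 at E16.5, with a difference of 0.63 ± 0.18 SE. Here too E13.5 array 2 was above the other E13.5 arrays. Eci1, Etfdh, Echs1, Decr1 and Lpl, which act in the same route, were higher without overlap by 0.40, 0.34, 0.34, 0.30 and 0.29. Cpt1a and Cpt2, which carry fatty acids into mitochondria, had differences of -0.15 and -0.26.

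In glucose use, 7 of 22 measured genes (31.8%) were higher and 1 was lower without overlap, with a median of 0.23. Hk2, the hexokinase of insulin-responsive muscle, had intensities of 1088, 983 and 1073 at E13.5 and 1434, 1585 and 1301 at E16.5, a difference of 0.45 ± 0.11 SE (adjusted p = 0.118). Pygm, muscle glycogen phosphorylase, had 1509, 1949 and 1349 at E13.5 and 2574, 2348 and 2282 at E16.5, a difference of 0.59 ± 0.18 SE. The single lower member was Slc2a1, the glucose transporter typical of fetal tissue, with 5087, 5117 and 4844 at E13.5 and 3296, 4126 and 4443 at E16.5, a difference of -0.35 ± 0.16 SE. Slc2a4, the insulin-responsive transporter, was higher by 0.29 without overlap. Amino acid oxidation gave 3 of 12 genes higher without overlap, among them Bckdhb, a subunit of the branched-chain keto acid dehydrogenase, at 795, 838 and 775 against 1145, 1208 and 1216. Its difference was 0.56 ± 0.13 SE with an adjusted p of 0.102. Bcat1, the cytosolic enzyme that starts branched-chain amino acid breakdown, lay in the other direction, at 857, 342 and 528 on E13.5 and 162, 243 and 283 on E16.5 arrays, a difference of -1.21 ± 0.34 SE.

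The creatine kinase system buffers ATP in muscle. Ckm, its cytosolic muscle enzyme, had intensities of 859, 7219 and 1785 at E13.5 and 9729.9, 14910.2 and 8831 at E16.5. The ages did not overlap, but E13.5 array 2 was near the E16.5 arrays, and the difference of 2.27 ± 0.76 SE, 4.83-fold, had an adjusted p of 0.226. Without that array it was 3.11, with an adjusted p of 0.0446. Ckmt2, the mitochondrial enzyme of muscle, had 395, 996 and 452 at E13.5 and 2176, 2259 and 964 at E16.5, so that E16.5 array 3 lay within the E13.5 range. It differed by 1.55 ± 0.39 SE (adjusted p = 0.118) and was a shared gene. Mb, myoglobin, overlapped between the ages at 272, 389 and 311 against 601, 3534 and 259, with a single high value on E16.5 array 2, the array with high ventricular genes. Gstm1, a glutathione transferase, had 368, 975 and 596 at E13.5 and 1874, 1919.5 and 1146 at E16.5, a difference of 1.40 ± 0.29 SE at the lowest adjusted p, 0.069, and was also shared. Its probe set may bind other transferases of the family, so its value is uncertain.

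**Figure D4:**
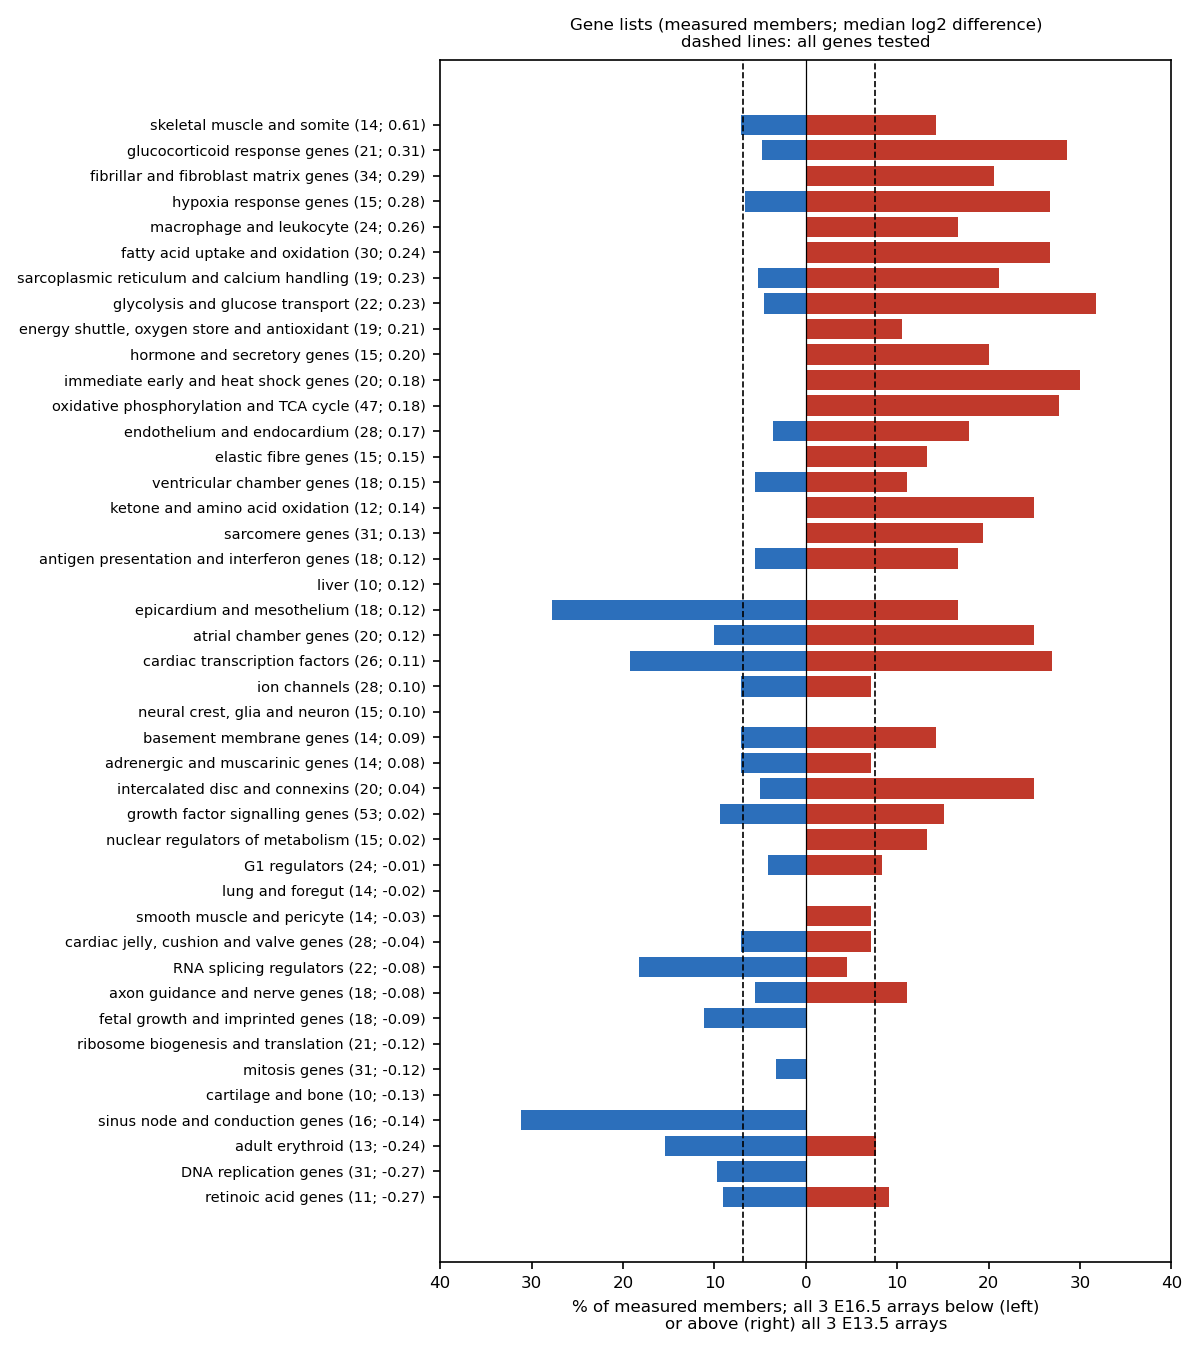
Share of each list's measured members whose 3 E16.5 arrays all lay above (red, right) or below (blue, left) the 3 E13.5 arrays, for lists with at least 10 measured genes, ordered by median log2 difference (in brackets after the number measured). Dashed lines mark the shares over all genes, 7.54% higher and 6.92% lower. The oxidative phosphorylation, fatty acid and glucose lists reached 27.7%, 26.7% and 31.8% to the right, and the energy shuttle list 10.5%. The sinus node (31.2%) and epicardial (27.8%) lists reached farthest to the left. DNA replication, at 9.68%, was near the dashed line.

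The sarcomere list, genes of the contractile apparatus, had 31 measured genes, 6 of them (19.4%) higher without overlap and none lower, with a median of 0.13. Myom2, an M-band protein that links thick filaments, had intensities of 589, 3588 and 1551 at E13.5 and 6055, 4856 and 3990.2 at E16.5, a difference of 1.70 ± 0.66 SE (adjusted p = 0.304). E13.5 array 2 again lay close to the E16.5 range. Myoz2, a Z-disc binder of calcineurin, had 2865, 2929.6 and 2185 at E13.5 and 4679.7, 4890.4 and 3052 at E16.5, a difference of 0.64 ± 0.18 SE. Actn2, the Z-disc actinin, had 6299.7, 5829.8 and 5433 against 6993, 9394 and 6757, a difference of 0.38 ± 0.13 SE. The atrial heavy chain Myh6 had 13382, 14469 and 13568 at E13.5 and 11939, 15968 and 13487 at E16.5, with a difference of -0.01 ± 0.15 SE and an interval of -0.31 to 0.29. This gene, like Nppa and Myl7, was near the top of the measured range. Myh7, the ventricular and slow heavy chain, had 1567, 2362 and 969.8 at E13.5 and 4444, 13378 and 1776 at E16.5. The high value on array 2 went with that array's other ventricular genes, and the difference was 1.62 ± 0.57 SE with it and 0.87 without it; their part in the result was not tested. Without E16.5 array 3 the difference was 2.32 with an adjusted p of 0.0488.

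Calcium handling had 4 of 19 measured genes higher and 1 lower without overlap, with a median of 0.23. Pln, the inhibitor of the calcium pump, had intensities of 2884, 4660.3 and 3228 at E13.5 and 5963, 10044 and 5495 at E16.5, a difference of 0.97 ± 0.28 SE (adjusted p = 0.151). Sln, sarcolipin, the atrial inhibitor of the same pump, had 4543, 10711 and 5780.5 against 12108, 15577 and 11282. Its arrays did not overlap, yet the spread of this probe set, pooled over atrial and ventricular groups, was wide, and the difference was 0.97 ± 0.99 SE. The other measured Sln probe set differed by 1.36 (limma, adjusted p = 0.222). Ryr2, the calcium release channel, had 2719, 3054 and 2755 at E13.5 and 3890.5, 3622 and 3433 at E16.5, a difference of 0.36 ± 0.12 SE. The other measured Ryr2 probe set differed by 0.03. Casq1, the calcium-binding protein of fast skeletal muscle, was the lower member, at 5862, 3227 and 4550.4 against 2805, 3204 and 2583, with a difference of -0.63 ± 0.19 SE.

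At cell junctions, 5 of 20 measured genes were higher and 1 was lower without overlap, and the median was 0.04. Ank2, an anchor for ion transporters, had intensities of 776, 1125 and 808 at E13.5 and 1697, 1285 and 1391 at E16.5. The difference of 0.69 ± 0.15 SE had an adjusted p of 0.0866, and it was a shared gene. Dsc2, the desmosomal cadherin of heart, was lower, with 992, 765 and 1103 at E13.5 and 662, 514 and 534 at E16.5, a difference of -0.72 ± 0.17 SE (adjusted p = 0.0951). Gja1, the main connexin of working muscle, had 5915, 6528 and 6334 at E13.5 and 7123, 8653 and 6900.4 at E16.5, a difference of 0.27 ± 0.16 SE, and Vcl, vinculin, differed by 0.28 ± 0.10 SE. Gja5, the atrial connexin, overlapped between the ages at 769, 750 and 714 against 892, 552 and 723. Ion channel genes, with 2 of 28 higher and 2 lower without overlap (7.14% each), were near the background.

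Genes that mark the atrial chamber were split. Of 20 measured, 5 (25.0%) were higher and 2 were lower without overlap, with a median of 0.12. Nppa, atrial natriuretic peptide, had intensities of 13437, 15332 and 13234 at E13.5 and 10815, 17476 and 14233 at E16.5, and the difference was -0.01 ± 0.19 SE with an interval of -0.39 to 0.38. Myl7, the atrial regulatory light chain, had 13117, 14887 and 13072 against 10778, 16821 and 13922, with a difference of -0.01 ± 0.21 SE. Higher members included Bmp10, an atrial growth factor for heart muscle, at 770.3, 1264 and 709.5 against 2250.2, 1533 and 1316, a difference of 0.89 ± 0.38 SE. Pam, the amidating enzyme of atrial secretory granules, had 1760.4, 2772 and 2062 at E13.5 and 4742, 3936 and 3253 at E16.5, a difference of 0.86 ± 0.24 SE (adjusted p = 0.139). The lower members were the atrial identity factors Nr2f1, at 2889, 2316 and 2688 against 1968, 1651 and 2211, and Nr2f2, at 1692, 1459 and 1679 against 1229, 1159 and 1352. Their differences were -0.44 ± 0.29 and -0.36 ± 0.15 SE, with limma adjusted p of 0.586 and 0.342. Among hormone genes, Nppb, the brain natriuretic peptide, had 7219, 6754 and 5299 at E13.5 and 9095, 10757 and 7781 at E16.5, a difference of 0.52 ± 0.26 SE.

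Ventricular markers were read as a check of the dissection. Of 18 measured genes, 2 were higher and 1 was lower without overlap. Their summed intensity was 18137, 21001 and 16462 at E13.5 and 20832, 65735 and 17019 at E16.5, so that array 2 alone was high. Myl2, the ventricular light chain, had 2383, 4117 and 1149.8 at E13.5 and 1556, 16782 and 594 at E16.5, and Hey2, a ventricular Notch target, had 226, 180 and 157 against 100.3, 548 and 126, each highest on that array. Leaving E16.5 array 2 out left 0 probe sets called.

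Genes of the sinus node and venous pole were mostly lower. Of 16 measured genes, 13 had a negative difference and 5 (31.2%) were lower without overlap, with none higher and a median of -0.14. Shox2, a regulator of the sinus node, had intensities of 1747, 1221 and 907 at E13.5 and 762, 801 and 777 at E16.5, a difference of -0.67 ± 0.43 SE (adjusted p = 0.569). Tbx18, which marks the sinus horn and also the epicardium, had 3519.6, 2195 and 2292 against 1561, 1464 and 1902, a difference of -0.67 ± 0.17 SE (adjusted p = 0.118). Bmp4, a growth factor of the venous pole mesenchyme, had 1016, 786 and 1002 at E13.5 and 521, 552 and 753 at E16.5, a difference of -0.61 ± 0.26 SE. Isl1, the progenitor and sinus node factor, had 205, 101 and 129 against 75.7, 244 and 21.7, overlapping because E16.5 array 2 was the highest of all 6.

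Cardiac transcription factors went both ways, with 7 of 26 higher (26.9%) and 5 lower (19.2%) without overlap. Klf15, a factor of metabolic and glucocorticoid programmes, was the largest, with intensities of 19, 130.3 and 33.1 at E13.5 and 371, 401 and 203 at E16.5. The ages did not overlap, and the difference of 2.36 ± 0.55 SE had an adjusted p of 0.0951. Its E13.5 values were dim, so the size depended on the pseudocount, at 2.80 with 1 and 1.67 with 68. It was a shared gene, at 2.95 and an adjusted p of 0.00928 without E13.5 array 2. The core factors differed less: Nkx2-5 had 3408, 3338 and 2626 against 3373, 3505 and 3415, a difference of 0.14 ± 0.11 SE, and Tbx5 a difference of 0.43 ± 0.25 SE with overlapping arrays. Meis1 and Meis2, homeobox factors of the early heart, were lower without overlap, with differences of -0.38 and -0.42.

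Most cell division genes had small negative differences, but few were apart between the ages. In DNA replication, 30 of 31 measured genes had a negative difference and the median was -0.27, against -0.02 over all genes. Of these, 3 (9.68%) were lower without overlap, near the 6.92% of all genes, and E13.5 array 2 was low for the list: the summed intensity was 67348, 52249 and 71041 at E13.5 and 50375, 57927 and 53272 at E16.5. Without that array the median was -0.42. Mcm3, a subunit of the replicative helicase, had intensities of 3114, 2129.8 and 3117 at E13.5 and 1981, 1664 and 2324 at E16.5, a difference of -0.47 ± 0.13 SE (adjusted p = 0.134), and was a shared gene. Its subunit partner Mcm4 had 3327, 3119 and 3762 against 2829, 2099 and 2093, a difference of -0.55 ± 0.17 SE. The other measured Mcm4 probe set differed by -0.21 (limma, unadjusted p = 0.196). Cdc6, which loads the helicase, had 424, 363 and 472 against 251, 294 and 290.2, a difference of -0.56 ± 0.21 SE. Mitosis genes had a median of -0.12, with 27 of 31 negative and 1 (3.23%) lower without overlap, Tpx2, a spindle assembly factor, at 1082, 928 and 1186 against 913, 861 and 919. Their summed intensity was 67587, 52586 and 70114 at E13.5 and 57630, 59151 and 57827 at E16.5, with E13.5 array 2 below every E16.5 array, and without that array the median was -0.25, while without array 3 of each age it was -0.05, with 19 of 31 negative. Lmnb1, a lamin of the nuclear envelope that is not restricted to dividing cells, had 2563, 1794 and 2273 at E13.5 and 972, 1358 and 1560.5 at E16.5. Its difference of -0.77 ± 0.16 SE was at the lowest adjusted p, 0.069, and it was a shared gene.

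Fetal growth genes had 2 of 18 lower without overlap (11.1%) and none higher. Hmga2, a chromatin protein of growing embryonic tissue, had intensities of 2311, 632 and 2413 at E13.5 and 314, 391 and 669 at E16.5. E13.5 array 2 lay within the E16.5 range, so the ages overlapped, and the difference was -1.77 ± 0.41 SE, 3.41-fold lower, with an adjusted p of 0.0951. Without that array it was -2.39 with an adjusted p of 0.0036. Igf2bp1, an RNA-binding protein of fetal tissue, had 1814, 852 and 1302 against 748, 737 and 906, a difference of -0.66 ± 0.22 SE. Cdkn1c, the imprinted inhibitor of the cell cycle, had 11243, 9203 and 9304 at E13.5 and 6201, 8143 and 8931 at E16.5, a difference of -0.36 ± 0.18 SE without overlap.

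Connective tissue genes were higher in part. Of 34 measured fibroblast matrix genes, 7 (20.6%) were higher and none lower without overlap, with a median of 0.29, and 0.18 without E16.5 array 2. Col6a3, a chain of collagen VI, had intensities of 1048, 2542 and 1836 at E13.5 and 3498, 3752 and 3017 at E16.5, 2-fold higher (adjusted p = 0.127). The other chains, Col6a1 and Col6a2, differed by 0.53 and 0.52, also without overlap. For Col6a1 array 3 of each age was nearly equal, at 2714.9 for E13.5 and 2716.6 for E16.5. Col14a1, a fibril-associated collagen, had 784, 1721 and 1522 against 2295, 2679 and 1792, a difference of 0.80 ± 0.32 SE. Col1a1, the main chain of collagen I, overlapped at 3262, 6556 and 5113 against 6011, 9151 and 6547. Aspn, asporin, a small proteoglycan of matrix, had 54.5, 358 and 117 at E13.5 and 1283, 861 and 412 at E16.5, a difference of 2.36 ± 0.57 SE, 5.15-fold, with an adjusted p of 0.108, and was a shared gene. Col26a1, a collagen of developing organs, was lower, at 983, 630.4 and 772 against 244, 306 and 518. Its difference of -1.17 ± 0.21 SE had the lowest unadjusted p of all named genes and an adjusted p of 0.069, and it too was shared.

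Endothelial genes had 5 of 28 higher (17.9%) and 1 lower without overlap, with a median of 0.17. Esam, an adhesion molecule of endothelial junctions, had intensities of 1714, 1614 and 1785 at E13.5 and 2222, 2350 and 2461 at E16.5, a difference of 0.46 ± 0.12 SE (adjusted p = 0.12). Eng, endoglin, a coreceptor for BMP ligands, had 2172, 3205 and 2449 against 4489.7, 3836 and 3601, a difference of 0.62 ± 0.18 SE, and Cd34 differed by 0.67 ± 0.24 SE. Cdh5, the cadherin that defines endothelium, overlapped at 2211, 2075 and 1949 against 2318, 1679 and 2161.

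Of 7 measured mast cell genes, 2 were higher and none lower without overlap, with a median of 0.44. Hdc, the enzyme that makes histamine, had intensities of 20.1, 36.1 and 10 at E13.5 and 281, 139.9 and 82.1 at E16.5. All E16.5 arrays lay above all E13.5 arrays, but the E13.5 values and those of E16.5 arrays 2 and 3 were under the filter level of 171.8. The difference was 2.15 ± 0.44 SE, at 2.86 with a pseudocount of 1 and 1.31 with 68, so its size is uncertain, and it had the lowest adjusted p of 0.069. Tpsb2, a mast cell tryptase, had 26.4, 17.8 and 7.3 at E13.5 and 198, 138 and 33.9 at E16.5, a difference of 1.85 ± 0.50 SE. Cma1, a chymase, and Cpa3, a carboxypeptidase of mast cells, overlapped at 154, 326 and 243 against 354, 456 and 260.1 and 172, 443 and 254 against 373, 470.1 and 294. Among 24 measured macrophage and leukocyte genes, 4 (16.7%) were higher and none lower without overlap, with a median of 0.26. F13a1, a transglutaminase of tissue macrophages, had 289, 439 and 427 at E13.5 and 729, 912 and 650 at E16.5, a difference of 0.97 ± 0.20 SE (adjusted p = 0.069), and was shared. Csf1r, the receptor that macrophages need to survive, overlapped at 2438, 3104 and 3262 against 3012, 3414 and 3252.

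The epicardial list went both ways, with 3 of 18 higher and 5 lower (27.8%) without overlap. Wt1, a factor of the embryonic epicardium, had intensities of 970.1, 866 and 712 at E13.5 and 679.5, 681 and 619 at E16.5, a difference of -0.35 ± 0.16 SE. Msln, a surface protein of mature mesothelium, was higher, at 332, 674 and 482 against 1594, 759.8 and 739, a difference of 0.99 ± 0.41 SE. Their adjusted p values were 0.383 and 0.336 (limma).

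Among genes that respond to signals, part of each list was higher. In the glucocorticoid list, 6 of 21 (28.6%) were higher and 1 was lower without overlap, with a median of 0.31. Negative differences were seen for 6 of the 21, down to -0.725. Besides Klf15, Klf9, a factor induced by the hormone, had intensities of 328, 397 and 401 at E13.5 and 1078, 638 and 531 at E16.5, a difference of 0.91 ± 0.22 SE (adjusted p = 0.108). Fkbp5, a chaperone of the receptor, had 1211, 1459.5 and 1197 against 1751, 1773 and 1461, and Sgk1, a kinase induced by the hormone, 791, 1013 and 826 against 1402, 1267 and 1175; they differed by 0.36 ± 0.10 and 0.54 ± 0.16 SE. The list's summed intensity overlapped between the ages. Hypoxia genes had 4 of 15 higher (26.7%) and 1 lower, with Ndrg1, a stress-induced gene, at 296, 1164 and 416 against 1899, 1454 and 1309.9 and a difference of 1.52 ± 0.38 SE (adjusted p = 0.118). E13.5 array 2 was close to the E16.5 range there too. Egln3, an oxygen sensor, overlapped at 304, 934 and 465 against 1902, 1326 and 744, a difference of 1.25 ± 0.36 SE. Immediate early and heat shock genes had 6 of 20 higher (30.0%) and none lower without overlap, while 7 had a negative difference. Fos, a transcription factor induced by stimuli, had 477, 463 and 338 at E13.5 and 964, 652 and 752 at E16.5, a difference of 0.86 ± 0.18 SE at the lowest adjusted p, 0.069, and was shared. Egr1 and Atf3 were also higher without overlap, by 0.62 ± 0.21 and 1.03 ± 0.34 SE. These are genes that switch on quickly after a stimulus, and the labels give no time from dissection to lysis.

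Some further single genes belonged to none of the groups above. Rassf5, an effector of Ras-family proteins, had intensities of 1043, 990.1 and 968 at E13.5 and 496, 569.7 and 641 at E16.5, a difference of -0.80 ± 0.15 SE (adjusted p = 0.069). Its other measured probe set differed by -0.28 (limma, unadjusted p = 0.298). Lrrc2, a leucine-rich repeat gene of heart and muscle, had 146, 301 and 155 against 739, 592 and 377, a difference of 1.45 ± 0.30 SE (adjusted p = 0.069). Lmcd1, a LIM domain gene of muscle, had 409, 482 and 445 against 1110, 1014 and 855, a difference of 1.12 ± 0.24 SE (adjusted p = 0.0835). These 3 were shared genes. Nrtn, neurturin, a growth factor for parasympathetic neurons, had 736, 1278 and 829 at E13.5 and 2233, 1592 and 1761 at E16.5, a difference of 0.99 ± 0.26 SE. Tnnc2, troponin C of fast skeletal muscle, had 18.3, 24.6 and 14.4 against 212, 784 and 39.2, a difference of 2.60 ± 0.70 SE (limma, adjusted p = 0.134). Its E13.5 values and that of E16.5 array 3 were under the filter level of 171.8, so its size is uncertain. At E18.5 it had 14.2, 82.6 and 56.8. Its spread at E16.5 was wide, and the skeletal muscle list summed to 2857, 6299 and 1955 on those arrays and 1974, 2475 and 1864 at E13.5; its part in the result was not tested.

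Markers of other tissues were followed for the whole list in each case. Skeletal muscle and somite genes had 2 of 14 higher (14.3%) and 1 lower without overlap and a median of 0.61, which was 0.11 without E16.5 array 2. None of the 15 neural crest and neuronal genes, 10 liver genes, 14 lung genes, 6 brown fat genes, 10 cartilage genes or 3 thymus genes was apart between the ages. The brown fat list nevertheless had a median of 0.96, and 0.18 without E16.5 array 2. The liver list summed to 1313, 3078 and 1827 at E13.5 and 2237, 5559 and 1339 at E16.5, highest on the same array. The lung list summed to 3784, 4355 and 9518 at E13.5 and 3606, 8139 and 13164 at E16.5. Array 3 of each age, with Sftpc above 1000, are called the arrays with high lung genes. Without them 4 probe sets were higher and 1 was lower. E16.5 array 2, whose lung list summed to 8139, stayed in that fit.

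The same ages were compared in ventricles to see where the atria differed. There 812 probe sets passed (2.98%), 346 of them higher (1.27%) and 466 lower (1.71%). The difference between the chambers in their change over these ages was called for 0 probe sets (0%), with a lowest adjusted p of 0.0507 and 2790 (10.2%) at an unadjusted p below 0.05. So no gene is shown to change differently in the 2 chambers between these ages. Without ventricular E13.5 array 1, the chambers' difference was called for 16 probe sets higher and 5 lower in atria. In ventricles Hba-x fell by 3.73 ± 0.50 SE on the log2 scale (adjusted p = 0.000249), and the atrial change minus this was 1.77 ± 0.71 SE (unadjusted p = 0.0179, adjusted p = 0.387). Bckdhb rose there by 0.58 ± 0.13 SE and Ckmt2 by 1.95 ± 0.39 SE, beside 0.56 and 1.55 in atria. Most shared genes had a difference of the same sign in both chambers. Some ventricular differences were smaller than their SE, as for Lmnb1 at -0.11 ± 0.16 and Palmd at 0.02 ± 0.17 SE. The sign alone thus does not show a ventricular change, and the share of all genes with the same sign was not counted. All 8 shared genes that were lower in atria had a ventricular difference below 0. Of the 56 that were higher in atria, 8 had a ventricular difference below 0 and the rest lay above 0. The ventricular median over all genes was 0.007. Among the 8 exceptions were Fos at -0.16 ± 0.18, F13a1 at -0.23 ± 0.20 and Lmcd1 at -0.20 ± 0.24 SE. Their atrial changes minus the ventricular ones were 1.02 ± 0.25, 1.20 ± 0.28 and 1.32 ± 0.35 SE, with limma adjusted p of 0.158, 0.142 and 0.204. The atrial chamber list had a ventricular median of -0.29, and the oxidative phosphorylation list one of 0.14.

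The other atrial ages place these values in a longer course, with the E16.5 and E13.5 arrays in common and no test made. Hba-x was at 11500, 11558 and 12927 at E12.5, 6451, 5501 and 10941 at E14.5 and 147, 217 and 165 at E18.5, so the E16.5 arrays lay between the younger arrays and those of E18.5. Klf15 was at 27.5, 21 and 17.7 at E12.5 and 267, 370.4 and 203 at E18.5, where it overlapped the E16.5 range. Hdc had 19.7, 14.7 and 18 at E12.5 and 230.4, 234 and 312 at E18.5. The E14.5 arrays were spread widely: Ckm had 7389, 12248 and 947, Aspn 751, 396 and 64.5 and Hmga2 2205, 1008 and 3560.4. Array 3 of that age was near the low E13.5 arrays for Ckm and Aspn and above both high ones for Hmga2. Col26a1 was at 768, 558 and 969 at E14.5, within or near the E13.5 range, and at 138, 147 and 104 at E18.5. E16.5 array 1 correlated with the E18.5 arrays at 0.9749 to 0.9778, above its 0.961 and 0.969 with E16.5 arrays 2 and 3. Those 2 arrays correlated with the E18.5 arrays at 0.9552 to 0.9645. E16.5 array 3 was closest to E13.5 array 2, at 0.9737.

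**Figure D5:**
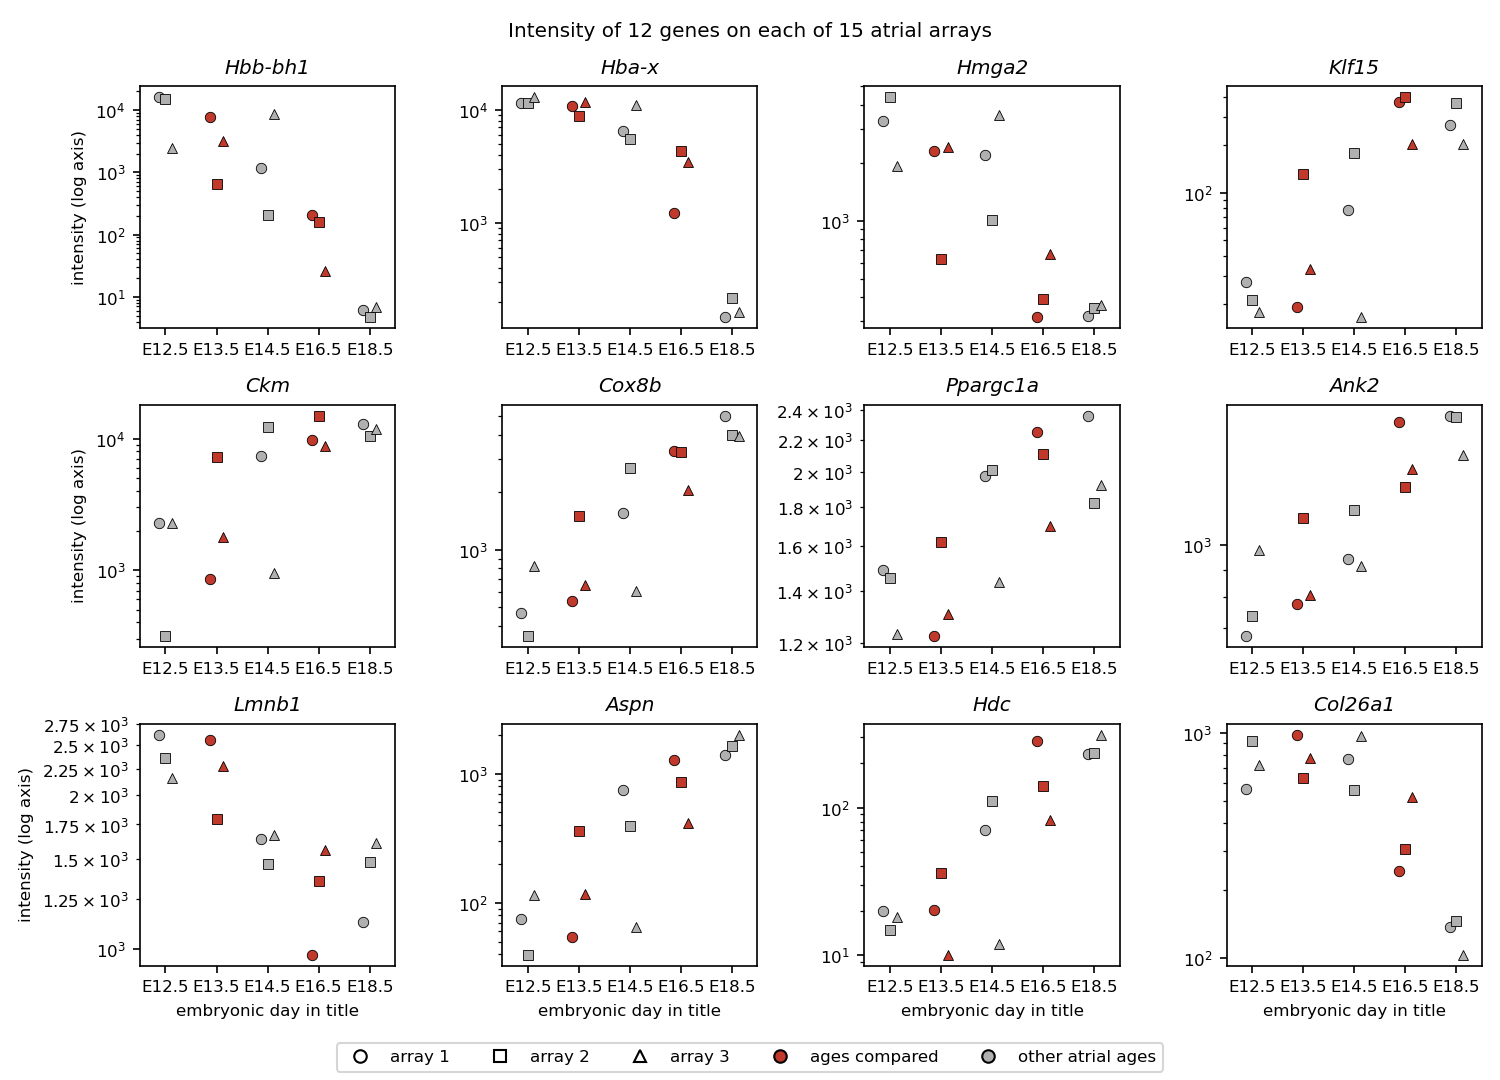
Intensity (log axis) of 12 genes on each of the 15 atrial arrays, by the embryonic day in the title, with array 1, 2 and 3 as circles, squares and triangles and the compared ages in red. E13.5 array 2 (red square) lay on the E16.5 side of the other E13.5 arrays for all 12 genes. The E14.5 arrays spread over much of the range for Hbb-bh1, Klf15, Ckm and Aspn.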

How the data were processed

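The deposited values are intensities on a linear scale, 1 per probe set and array, per the file headers and the values. The authors' summary method is not given in the sources used. Their scaling was kept. Control probe sets (64 of 45101) were left out. Of the rest, 34945 were annotated to 1 symbol, 932 to several and 9160 to none, and symbols were updated through gene identifiers to RefSeq (GRCm38.p6), where 34754 matched. A probe set was tested if 3 or more arrays exceeded 171.8, the median intensity. A pseudocount of 17 was added before log2, which understates the change of dim genes.

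R 4.3.3 with limma 3.58.1 fitted 12 group means to the 36 arrays with an intensity trend, 24 residual and 5.7 prior degrees of freedom, and two-sided tests; p-values were adjusted by Benjamini-Hochberg over the 27256 probe sets. A gene was represented by its 1-symbol probe set with the highest mean over all arrays. Other measured probe sets of a named gene could differ less, as for Ckm (0.63) and Bcat1 (-0.21), or in sign, as for Idh3a (-0.09). None had the opposite sign at an unadjusted limma p below 0.05. Of 1073 list members in 48 lists, 929 (863 different genes) were measured.

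The members, lists and genes were chosen with earlier results of these data known. The naming rule took a fixed set of heart genes, of which Hcn4 had no measured probe set, the largest called differences whose arrays did not overlap, and called members of each list. No gene was called, so the other genes were chosen after their values were seen. Replicate numbers were not used to pair the samples. Deviations of atrial E13.5 and E16.5 arrays with the same number correlated at 0.041, 0.052 and 0.13. Whether atrium and ventricle arrays of the same age and number came from the same hearts was not examined, and the chambers' difference took them as independent. Alternatives were other normalizations, pseudocounts, filters, sets of arrays, array weights and leaving out arrays.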

Additional observations from a re-analysis of the deposited data

How the results depend on the processing

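With 3 arrays an age, the median SE of a log2 difference was 0.174. The counts of atrial probe sets called higher and lower were 20 and 1 with median centring, which moved the median of all tested probe sets from -0.0415 to 0.0466. They were 2 and 2 with a pseudocount of 68, 1 and 2 with a filter at the 75th percentile, 127 and 46 with array weights, 4 and 1 without the 2 arrays with high lung genes, and 3 and 5 without these and the arrays with high liver genes, which leaves 1 E16.5 array assumed to vary like the other groups. Leaving out 1 array gave 0 to 213 higher and 0 to 125 lower; counts above 0 came without E13.5 array 2 (213 and 125) or 3 (1 and 0) and without E16.5 array 3 (164 and 80). Quantile normalization, a pseudocount of 1, no filter, only the 6 or the 15 atrial arrays, no intensity trend and averaging each gene's probe sets each called 0. For the chambers' difference, higher and lower calls were 4 and 2 with a pseudocount of 1, 0 and 1 without a filter, 2 and 2 with the strict filter, 1 and 0 with only the compared arrays, 34 and 4 with array weights, 2 and 0 without the arrays with high lung genes, and 5 and 11 without those with high lung or liver genes, ventricular E16.5 array 2 included. Leaving out 1 array gave 0 to 16 higher and 0 to 5 lower. Those above 0 came without atrial E13.5 array 3 (4 and 3), atrial E16.5 array 2 (0 and 1) or 3 (6 and 2), ventricular E13.5 array 1 (16 and 5), 2 (0 and 1) or 3 (1 and 0), and ventricular E16.5 array 2 (2 and 0). The cause was not tested.

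The replicate number as a block, which has no support in the labels, called 0 atrial probe sets in either direction, also with the 6 arrays alone, and 2 higher and 0 lower for the chambers' difference. Nppa, Myl7 and Myh6, each at -0.01, took the other sign with median centring (0.0817, 0.0827 and 0.0777), and leaving out 1 array gave -0.171 to 0.175 for Nppa, -0.158 to 0.163 for Myl7 and -0.121 to 0.0888 for Myh6. Cpt2 went from -0.426 to 0.0447 when 1 array was left out, and was above 0 without E16.5 array 2 and, at 0.0376, without the arrays with high lung or liver genes. Cox8a was at -0.0154 without these arrays. Other differences printed for named genes kept their sign under these settings. Dim genes moved with the pseudocount: Tpsb2 was at 2.61 with 1 and 1.07 with 68, Tnnc2 at 3.26 and 1.76, and Npas2 at 2.41 and 1.15. Ckm was at 1.59 and Myom2 at 1.05 without E13.5 array 1, and Tnnc2 at 1.66 without E16.5 array 2. List medians also moved, in settings chosen after seeing the data. Without E16.5 array 2 the median was 0.14 for glucose use, 0.20 for glucocorticoid response, 0.11 for macrophages, 0.24 for the atrial chamber, -0.63 for erythroid genes and 0.06 for elastic fibres, and the sign turned for growth factor signalling (-0.03), the ventricular chamber (-0.14), liver (-0.22) and neural lists (-0.03). Without E13.5 array 2 it was 0.36 for calcium handling, 0.78 for mast cells and 0.37 for elastic fibres. Without array 3 of each age it was 0.07 for the sarcomere, 0.06 for the atrial chamber and -0.20 for the sinus node.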

Other observations

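Several further groups hold values that the comparison above did not use. Of 22 measured RNA splicing regulators, 4 (18.2%) were lower and 1 was higher without overlap: Srsf1, Hnrnpa1, Hnrnpd and U2af1 differed by -0.19, -0.30, -0.26 and -0.25, and Mbnl2, which promotes mature splicing patterns, by 0.31. Another Mbnl2 probe set differed by -0.38, while its remaining ones were above 0. Growth factor signalling genes had 8 of 53 higher (15.1%) and 5 lower (9.43%), with a median of 0.02. Elastic fibre genes had 2 of 15 higher and none lower, and a median of 0.15 in atria and -0.27 in ventricles, a difference that was not tested for the list. None of 21 genes of ribosome biogenesis and translation was apart between the ages.

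Npas2, a clock-related factor, had intensities of 28.4, 87.6 and 9.9 at E13.5 and 291, 103 and 140.2 at E16.5, a difference of 1.84 ± 0.43 SE (limma, adjusted p = 0.0951). Per1, which the clock and glucocorticoids both induce, overlapped at 508, 1006 and 602 against 1314, 943 and 1086. Ptgds, a prostaglandin synthase, had 265, 1233 and 478 against 2137, 2937 and 1274, a difference of 1.85 ± 0.64 SE. E13.5 array 2 was the highest of its age for these genes.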
